A study of Mus musculus with 15 samples.

Results

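The importin alpha family and its partners were followed through 15 mouse testis transcriptomes. The set held 8 genes, found by matching Entrez gene IDs to gene symbols in a table of 23510 gene IDs. These were the 6 importin alpha genes Kpna1, Kpna2, Kpna3, Kpna4, Kpna6 and Kpna7, the importin beta gene Kpnb1, and its relative Ipo5. The family was chosen by the FPKM of Kpna2 in these same libraries, which differed widely between groups, so the levels of Kpna2 are given as a description with no test. The other 7 genes were not chosen for their own values. Each library was prepared from poly(A) RNA of testis of the outbred ICR stock, and 5 groups of 3 libraries were compared. In 3 groups, the muscarinic acetylcholine receptor M1, M3 or M5 was knocked down by lentivirus carrying a mixture of 3 shRNAs against its gene. MNC was the control for these, with lentivirus carrying a control shRNA. Per the study's methods, the injected mice received virus in the testes at 5 weeks of age and testes were collected 10 days later. Con is named in the labels only as control, and its age and handling are not given there. Which testis cells took up the virus is not given in the sources used here, and the text of the methods does not name the promoter of the shRNAs. The labels do not say that the libraries of a group came from separate animals, so p-values measure the spread between these libraries, part of which may be technical.

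Importin alpha proteins are adaptors of nuclear import. They bind the classical nuclear localization signal of a cargo protein and dock it to importin beta, encoded by Kpnb1, which carries the complex through the nuclear pore. Inside the nucleus the GTP-bound form of the small GTPase Ran releases the cargo, and the exporter encoded by Cse1l returns importin alpha to the cytoplasm. Ipo5 is a relative of importin beta that carries cargo, including ribosomal proteins and histones, without an alpha adaptor. Kpna2 and Kpna7 form one branch of the alpha family, Kpna3 and Kpna4 another, and Kpna1 and Kpna6 belong to a further one. Male germ cells are known to use different importin alpha genes at different stages of their development.

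Values are FPKM, fragments per gene corrected for gene length and for library size, so levels can be set side by side between genes. The libraries were alike in general measures. Summed FPKM ranged from 470243 to 513817, from 20619 to 20840 genes had an FPKM above 0, and the relative depth read from the steps between low values ranged from 0.979 to 1.00. The absolute depth is unknown. The tissue label was checked against markers: the summed FPKM of 6 spermatocyte genes was 470.4 to 660.1 in every library, and that of 6 round spermatid genes 942.4 to 1226. The transcripts of the targeted receptors were near the floor of the measurement, with Chrm1 at 0.06 to 0.17 FPKM, Chrm3 at 0.01 to 0.11 and Chrm5 at 0.19 to 0.43 over all 15 libraries, so they do not check the group labels. M3 replicate 3 stood apart from the other M3 libraries. For all 7 of the nuclear transport genes that differed between M5 and MNC (below), it lay nearer to the M5 mean than to the MNC mean, against 1 of 7 genes for each of the other M3 libraries. Results that involve M3 are therefore given with and without it.

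The sequence of Kpna2 bears on how its value can be read. The gene lies on chromosome 11 (mm10, chr11:106988629-106999541, minus strand) and its main annotated transcript has 2054 bases in 11 exons. Of the 2005 stretches of 50 bases along that transcript, 1852 (92.4%) occur unaltered in a transcript of another annotated gene. Gm10184, an intronless copy tagged as a retrogene and annotated as protein coding (mm10, chr17:89908462-89910449, minus strand), holds 91.0% of them, and Gm10259 holds 69.6%. Over the 1587 coding bases of Kpna2, the sequence of Gm10184 differed at 2 positions, an identity of 99.874%. Both positions fall into the 60 coding bases below, from exon 7 of Kpna2 (mm10, chr11:106991258-106991317) and from the single exon of Gm10184 (mm10, chr17:89909576-89909635). They are shown because they are the only place within the coding sequence where these copies can be told apart, and the capitals mark the bases that differ.
Kpna2: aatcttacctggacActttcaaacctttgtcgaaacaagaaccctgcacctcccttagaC
Gm10184: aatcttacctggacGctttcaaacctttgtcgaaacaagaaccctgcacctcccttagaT
The value of Kpna2 is therefore uncertain: a fragment from nearly any part of the transcript fits these copies as well, and the mapping options stated in the methods do not say how a fragment that fits several genes entered the FPKM values. Neither Gm10184 nor Gm10259 was among the gene names matched to the 23510 gene IDs, so no level could be given for them. The part of the copies in the pattern of Kpna2 was not tested. The other genes shared little sequence. Ipo5 shared 5.88% of its stretches of 50 bases with Gm14857, Kpna7 shared 0.957% with Gm43563, and Kpna1, Kpna3, Kpna4, Kpna6 and Kpnb1 shared none with any other annotated gene. No stretch was shared between the 8 genes themselves.

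Kpna2 took 3 separate ranges of values, which did not follow the group labels throughout. In Con it was at 1.20, 1.88 and 1.32 FPKM in replicates 1 to 3. In MNC it was at 112.2, 9.39 and 87.5 FPKM. The control group of the knockdowns thus held both the 2 highest values of the series and 1 far below them. In M1 Kpna2 was at 2.09, 1.49 and 1.83 FPKM. In M3 it was at 1.16, 1.38 and 10.4 FPKM, the last in the library that stood apart. In M5 it was at 9.35, 8.82 and 9.49 FPKM, the tightest of the groups relative to its mean, with a coefficient of variation of 3.83%. Ordered by level, 8 libraries (all of Con and M1, and M3 replicates 1 and 2) lay between 1.16 and 2.09 FPKM. The next 5 (all of M5, MNC replicate 2 and M3 replicate 3) lay between 8.82 and 10.4 FPKM, after a step of 4.22-fold. The step to the remaining 2, MNC replicates 3 and 1, was 8.40-fold, while every other step between neighbouring libraries was at most 1.28-fold. From the lowest to the highest library the ratio was 96.8. These ranges were read from the values and are not groups of the study.

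**Figure D1:**
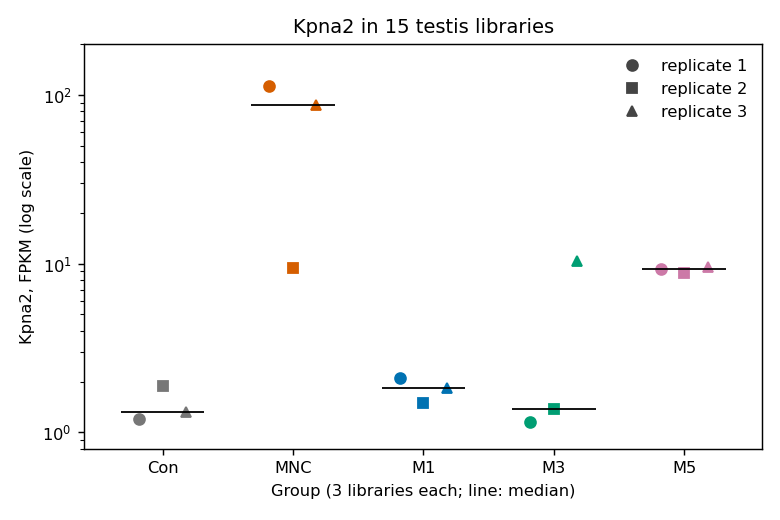
Kpna2 in FPKM on a log scale in each of the 15 libraries by group, with the marker shape giving the replicate and the line the group median. MNC replicates 1 and 3 lie at 112.2 and 87.5 FPKM, MNC replicate 2 and M3 replicate 3 lie with the 3 M5 libraries near 9 to 10 FPKM, and the other 8 libraries lie at 2.09 FPKM or less.

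By group mean, Kpna2 ranked MNC (69.7 ± 53.7 FPKM, SD, n = 3), M5 (9.22 ± 0.353), M3 (4.32 ± 5.28), M1 (1.80 ± 0.301) and Con (1.47 ± 0.363). Neighbours in this order were not all apart. The range of MNC reached down into those of M5 and M3, the range of M5 lay inside that of M3, and M3, M1 and Con overlapped. M5 and M1 did not overlap, and the M5 mean was 5.11 times that of M1. On the log2(FPKM + 1) scale, the difference was 4.26 for MNC minus Con, -4.07 for M1 minus MNC, -3.60 for M3 minus MNC and -2.20 for M5 minus MNC. It was 1.87 for M5 minus M1 and 1.39 for M5 minus M3. Without M3 replicate 3, the difference was -4.38 for M3 minus MNC and 2.17 for M5 minus M3. The 3 knockdown comparisons share the MNC libraries, so these differences are not independent of each other, and MNC is the group with the largest spread.

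The makeup of importin alpha transcripts, as read from FPKM, varied with Kpna2. The shares below take the Kpna2 value as given, and fragments of its copies may be part of it. The other 5 alpha genes together summed to between 83.9 and 104.5 FPKM in each of the 15 libraries. Kpna2 made up 1.26% to 2.29% of the summed alpha level in the 8 libraries where it was lowest, and 8.15% to 9.73% in the 5 libraries between. In MNC replicates 3 and 1 it made up 51.1% and 55.5%, and had there the highest FPKM of the importin alpha genes. In the other 13 libraries that place fell to Kpna4, with 55.6% to 65.1% of the sum. In these MNC libraries some other alpha genes were at the ends of their narrow ranges. Kpna1 was highest of the 15 libraries in MNC replicate 1, at 21.1 FPKM, and Kpna4 was lowest in MNC replicate 3, at 54.2. Without Kpna2, the sum was 90.0 FPKM in MNC replicate 1 and 83.9, the lowest of the series, in MNC replicate 3. In MNC replicate 2 it was 87.1.

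**Figure D2:**
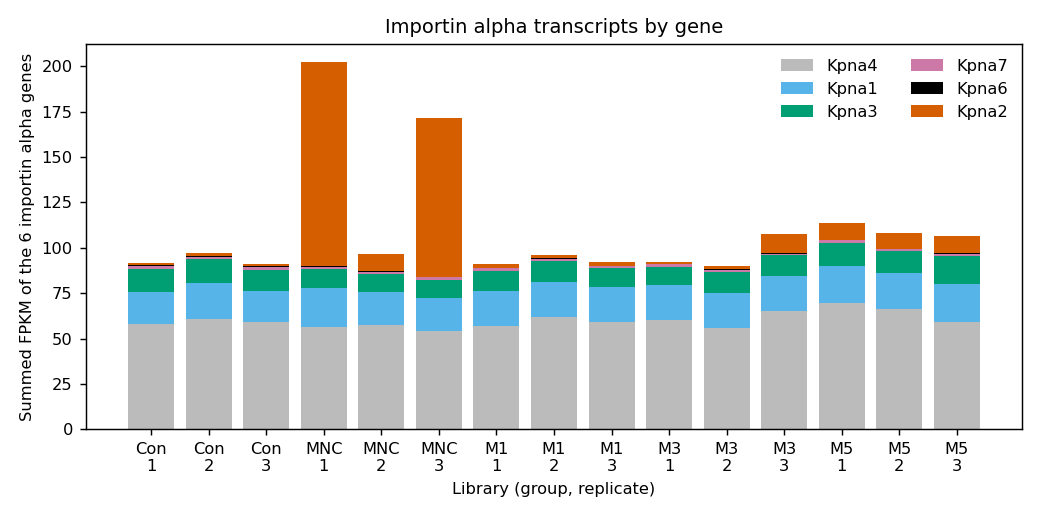
Summed FPKM of the 6 importin alpha genes in each library, stacked by gene, with libraries ordered by group and replicate. The part below Kpna2 is of similar height in all 15 libraries, from 83.9 to 104.5 FPKM. Kpna2, whose value may include fragments of its copies, adds 87.5 and 112.2 FPKM in MNC replicates 3 and 1.

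In mm10 coordinates of the RefSeq annotation, the other 7 genes lie at chr16:35983288-36037136 (Kpna1), chr14:61365186-61439947 (Kpna3), chr3:69072221-69127092 (Kpna4), chr4:129643979-129672767 (Kpna6), chr5:144983727-145009636 (Kpna7), chr11:97159710-97187892 (Kpnb1) and chr14:120896840-120948046 (Ipo5). Among the adaptors, Kpna4 was the most abundant apart from those 2 libraries, at 54.2 to 69.7 FPKM. Kpna1 followed with a mean of 19.2 FPKM, and its range of 17.1 to 21.1 was the narrowest of the 8 genes relative to the mean (coefficient of variation 5.48%). Kpna3, the close relative of Kpna4, had a mean of 11.7 FPKM and ranged from 9.89 to 15.8. Kpna7, known mainly from oocytes and early embryos, was near 1 FPKM, with 0.77 to 1.42 FPKM. Kpna6, the closest relative of Kpna1, was lowest, at 0.16 to 0.84 FPKM with a coefficient of variation of 50.6%. Of the carriers, Ipo5 was the most abundant of the set in every library, at 279.0 to 361.4 FPKM, and its mean of 324.5 FPKM ranked 187 among the 23510 gene IDs. Kpnb1 was at 47.4 to 62.7 FPKM. Ratios between the highest and the lowest library were 1.24 for Kpna1, 1.28 for Kpna4, 1.30 for Ipo5, 1.32 for Kpnb1, 1.60 for Kpna3 and 1.84 for Kpna7, against 96.8 for Kpna2.

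**Figure D3:**
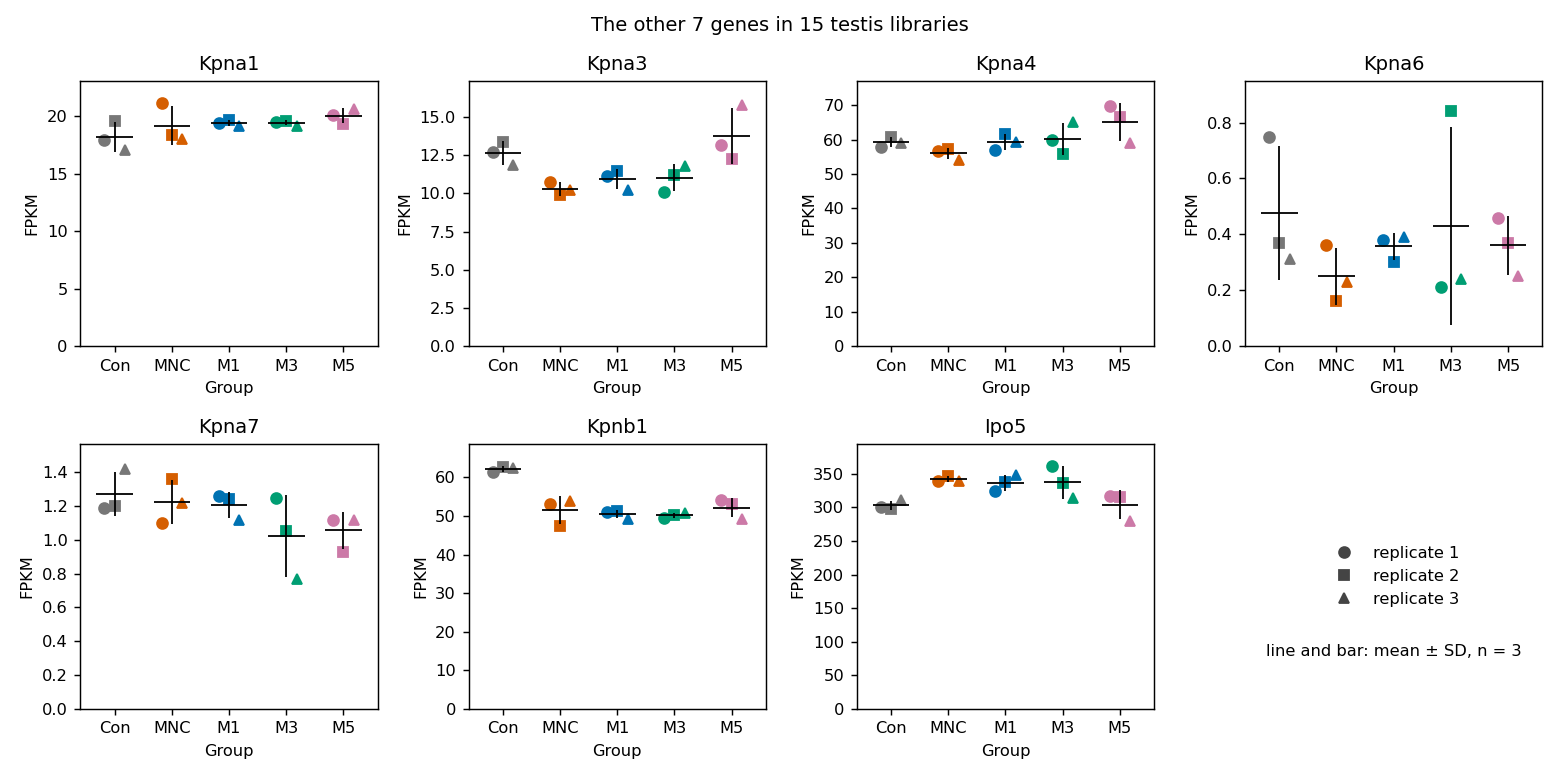
FPKM of Kpna1, Kpna3, Kpna4, Kpna6, Kpna7, Kpnb1 and Ipo5 by group, one panel each with the axis from 0, with a point per library (shape: replicate) and lines for the mean ± SD of 3 libraries. Kpnb1 lies at 61.4 FPKM or more in the 3 Con libraries and at 54.2 or less in the other 12, and Kpna3 is highest in M5 replicate 3 at 15.8 FPKM.

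Of the 7 genes other than Kpna2, 6 had a mean of 1 FPKM or more over all libraries and entered a limma fit across 14514 genes for each comparison. A gene was called where its Benjamini-Hochberg adjusted p over these genes was under 0.05. Kpna6 was under the filter and was compared by exact permutation, in which 3 against 3 libraries cannot give a p below 0.1.

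MNC was compared with Con to see how the injected control differed from the other control. Of the 6 genes tested, 3 were called, Ipo5 higher and Kpnb1 and Kpna3 lower in MNC. Across all genes 20.4% were called in this comparison (2967 of 14514, 1166 higher and 1801 lower), with a median log2 difference of -0.10. Kpnb1 was at 61.4, 62.7 and 62.5 FPKM in Con and at 53.2, 47.4 and 53.9 in MNC. Its groups did not overlap, and the log2 difference was -0.27 (SE 0.0598, limma adjusted p = 0.0323). Kpnb1 was also lower in the M1, M3 and M5 libraries than in any Con library, where it ranged from 49.3 to 54.2 FPKM. Kpna3 was at 12.7, 13.4 and 11.8 FPKM in Con and at 10.8, 9.89 and 10.2 in MNC, again without overlap (log2 difference -0.27, SE 0.0669, limma adjusted p = 0.0381). Ipo5 was at 300.6, 298.2 and 311.0 FPKM in Con and at 339.9, 346.7 and 338.7 in MNC, so its groups did not overlap in the opposite direction (log2 difference 0.17, SE 0.0397, limma adjusted p = 0.0345). The ratio of Ipo5 to Kpnb1 was 4.76 to 4.98 in Con and 6.28 to 7.32 in MNC. That ratio was 6.36 to 7.06 in M1, 6.17 to 7.30 in M3 and 5.66 to 5.95 in M5. Kpna4 did not overlap either, at 58.0 to 60.8 FPKM in Con and 54.2 to 57.3 in MNC, but was not called (log2 difference -0.08, limma adjusted p = 0.226). Kpna1 and Kpna7 overlapped, with log2 differences of 0.07 and -0.03. Kpna6 was at 0.477 ± 0.239 FPKM in Con and 0.250 ± 0.101 in MNC (SD, n = 3; exact permutation p = 0.2, two-sided).

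The 3 calls were near the threshold. Each was lost in 8 of 11 alternative fits, and none remained with the replicate number as a block or without MNC replicate 2, MNC replicate 3 or any 1 of the Con libraries. Centring each library on its median kept Ipo5 only, and turned the split of all calls to 1449 higher of 1869. Germ cell markers moved with these genes. Of 6 spermatocyte markers, 4 were called lower in MNC, with a summed level of 479.6 to 508.3 FPKM against 606.9 to 660.1 in Con. Of 6 round spermatid markers, 4 were called higher, with 1124 to 1148 FPKM against 942.4 to 968.3. Of 6 elongating spermatid markers 2 were called higher, with 22043 to 28183 FPKM against 10517 to 20766. The summed level of 6 epididymis markers was 15.99 to 34.6 FPKM in Con and 1.57 to 2.44 in MNC, with Lcn5 and Lcn8 at 0 in 14 of the 15 libraries. The part of these markers in the differences of Kpnb1, Kpna3 and Ipo5 was not tested. In whole testis, fewer cells of a type and less RNA per cell cannot be told apart.

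**Figure D4:**
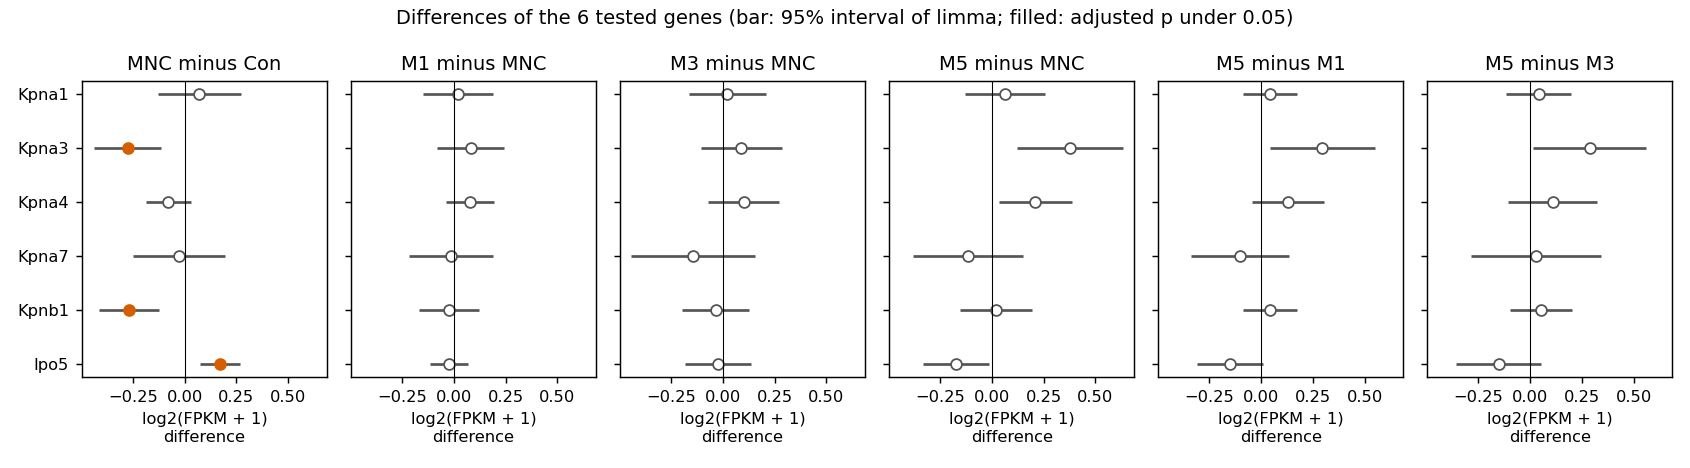
Difference in log2(FPKM + 1) between the groups named above each panel, first minus second, for the 6 tested genes, with the 95% interval of the limma fit; filled points were called at an adjusted p under 0.05. Only MNC minus Con holds filled points, Kpna3 at -0.27, Kpnb1 at -0.27 and Ipo5 at 0.17, while in M5 minus MNC the largest difference is 0.38 for Kpna3.

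The knockdowns were compared with MNC to see which transcripts differ when a receptor is targeted. Between M1 and MNC, 0 of the 6 genes were called by limma, beside 0% of all genes (862 had an unadjusted p under 0.05, but none of the 6). The largest log2 differences were 0.08 for Kpna3 (95% interval -0.08 to 0.24) and 0.08 for Kpna4 (-0.04 to 0.19). Kpnb1 was at 49.3 to 51.4 FPKM in M1, and Ipo5 at 324.8 to 348.0. Between M3 and MNC, 0 of the 6 were called, beside 0.00689% of all genes (1 gene). None of the 6 had an unadjusted p under 0.05, beside 9.43% of all genes. The log2 differences ran from -0.14 for Kpna7 (-0.44 to 0.15) to 0.10 for Kpna4 (-0.07 to 0.27). Without M3 replicate 3 they ran from -0.05 for Kpna7 to 0.05 for Kpna4, and again none was called. For Ipo5 that library had the lowest M3 value, 313.3 against 361.4 and 336.8 FPKM. Kpna6 gave exact permutation p-values of 0.2 for M1 and 0.6 for M3 against MNC, and of 0.5 for M3 without replicate 3.

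Between M5 and MNC, 0 of the 6 genes were called by limma, beside 5.65% of all genes (820, of which 400 were higher in M5). An unadjusted p under 0.05 was found for 3 of the 6, Kpna3, Kpna4 and Ipo5, beside 24.9% of all genes (3620). These genes also did not overlap between the groups, and the share of all genes without overlap was not counted. Kpna3 was at 13.2, 12.2 and 15.8 FPKM in M5, above the 9.89 to 10.8 FPKM of MNC (log2 difference 0.38, 95% interval 0.12 to 0.63, limma adjusted p = 0.091). Its M5 values overlapped those of Con, 11.8 to 13.4 FPKM. Kpna4 had 69.7, 66.6 and 59.1 FPKM in the M5 libraries, above the 54.2 to 57.3 of MNC (log2 difference 0.21, interval 0.03 to 0.39, limma adjusted p = 0.142). Ipo5 was at 316.7, 315.7 and 279.0 FPKM in M5, below the 338.7 to 346.7 of MNC (log2 difference -0.17, interval -0.33 to -0.01, limma adjusted p = 0.171). In each of these genes M5 replicate 3 was the library farthest from, or for Kpna4 nearest to, MNC. M5 replicate 3 also had the highest summed marker levels of the series for Sertoli cells (125.5 FPKM), Leydig cells (3137), macrophages (97.7) and red blood cells (490.8). Its adipocyte markers (27.5 FPKM) were the lowest of M5. Kpna1, Kpna7 and Kpnb1 overlapped, with differences of 0.06, -0.11 and 0.02. Kpna6 gave an exact permutation p of 0.2. With all 5 groups in one fit, Kpna3 (limma adjusted p = 0.0167) and Kpna4 (limma adjusted p = 0.0499) were called higher in M5, and without M5 replicate 3 Kpna4 was called (0.28, limma adjusted p = 0.0482). Red blood cell markers moved with M5: of 6 listed, 5 were tested and 3 were called higher. Their summed level was 147.6 to 490.8 FPKM over all 6 listed, against 21.8 to 35.4 in MNC. In this list Hba-a2 was at 0 in 6 of the 15 libraries, Hbb-bt in 7 and Hbb-bs in 1. Of the 6 spermatocyte markers 2 were called higher in M5, with a summed level of 549.9 to 592.9 FPKM against 479.6 to 508.3. Within this list Piwil1 (log2 difference -0.28, limma adjusted p = 0.153) and Spata22 (-0.15, limma adjusted p = 0.308) went the other way. Neither was called, and for both the M5 and MNC libraries did not overlap. Of the 6 round spermatid markers 1 was called lower, with 990.3 to 1036 FPKM against 1124 to 1148. Catsper3 (0.19, without overlap) and Spaca1 (0.03) of that list were higher in M5 but not called. Of the 6 elongating spermatid markers 1 was called lower, with 21832 to 30650 FPKM against 22043 to 28183. Prm2 (0.39), Tnp1 (0.17) and Prm1 (0.15) of that list were higher in M5 but not called. The part of these markers in the values of Kpna3, Kpna4 and Ipo5 was not tested.

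M5 was set against the other receptors directly. Against M1, 0 of the 6 genes were called by limma, beside 6.75% of all genes (980). An unadjusted p under 0.05 was found for 1 of the 6, Kpna3, beside 25.4% of all genes (3689). Kpna3 was 12.2 FPKM or more in M5 and 10.2 to 11.5 in M1 (log2 difference 0.30, limma adjusted p = 0.142), and Ipo5 was 316.7 FPKM or less against 324.8 or more (-0.15, limma adjusted p = 0.221). Both were without overlap, and the share of all genes without overlap was not counted. Against M3, 0 of the 6 were called by limma, beside 0.0138% of all genes (2). With an unadjusted p under 0.05 there was 1 of the 6, beside 14.3% of all genes (2077), and it was again Kpna3. Its groups did not overlap, with 12.2 FPKM or more in M5 and 10.1 to 11.8 in M3 (0.29, limma adjusted p = 0.341). Without M3 replicate 3, 188 genes were called, none of them among the 6, and the difference of Kpna3 was 0.33 (limma adjusted p = 0.232). Kpna6 gave exact permutation p-values of 1 in both comparisons, and of 0.8 against M3 without replicate 3. M5 shares its libraries between these 3 comparisons, so the values of Kpna3 are not separate observations.

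The other genes of the nuclear transport pathway were taken from 4 lists with 56 genes, all of which passed the filter: 11 other import receptors, 8 export receptors, 8 genes of the Ran cycle and 29 nucleoporins, the proteins of the pore. Between MNC and Con, 15 of the 56 (26.8%) were called, 3 higher and 12 lower, beside 20.4% of all genes. The median difference over the 56 was -0.11, close to the -0.10 of all genes. The export receptors had 4 of 8 called lower and none higher, with a median of -0.26. Xpo5, an exporter of microRNA precursors, was at 24.7 to 25.3 FPKM in Con and 16.8 to 19.0 in MNC (log2 difference -0.48, limma adjusted p = 0.0164). Xpot, the exporter of tRNA, was at 14.3 to 14.5 and 10.4 to 10.7 FPKM (-0.41, limma adjusted p = 0.0162). Ranbp17, a relative of the exporters, fell by 0.33 and Xpo1, the main exporter of proteins, fell by 0.30 on the log2 scale. The other import receptors had 1 of 11 called, lower, and the nucleoporins 1 higher and 6 lower of 29. The highest fold changes upward were in the Ran cycle, in Rcc1, which loads Ran with GTP, and Rangap1, which triggers hydrolysis of that GTP. Rcc1 was at 54.7, 44.8 and 63.3 FPKM in Con and 73.7, 82.4 and 91.0 in MNC (0.60, limma adjusted p = 0.034), and Rangap1 at 66.2 to 93.4 and 106.2 to 121.6 (0.55, limma adjusted p = 0.0345). Ran itself was called lower, at 198.1 ± 4.40 FPKM in MNC and 226.5 ± 3.08 in Con (SD, n = 3; -0.19, limma adjusted p = 0.0278). Nup153, a nucleoporin of the nuclear basket, was called higher (0.27). Cse1l, which recycles importin alpha, was at 28.2 ± 1.86 and 31.8 ± 2.28 FPKM and was not called (-0.17, limma adjusted p = 0.144). Single calls among these 15 failed in 3 to 9 of the 11 alternative fits.

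Against MNC, neither M1 nor M3 had a called transport gene (0 of 56 by limma). At an unadjusted p under 0.05 were 1 of the 56 for M1 and 3 for M3, beside 5.94% and 9.43% of all genes. The lowest p-values were those of Ranbp17 (0.18) and Nup160 (0.12) for M1, and of Nup35 (0.39) and Tnpo2 (-0.34) for M3, on the log2 scale. Without M3 replicate 3, limma again called 0 of the 56 for M3 (2 at an unadjusted p under 0.05), with Nup35 at 0.32 and Tnpo2 at -0.23. Between M5 and MNC, 7 of the 56 (12.5%) were called, 1 higher and 6 lower, beside 5.65% of all genes. Ranbp1, a cofactor of GTP hydrolysis by Ran, had 27.1, 26.3 and 47.3 FPKM in the M5 libraries, above the 7.88, 6.85 and 8.75 of MNC (log2 difference 1.92, SE 0.228, limma adjusted p = 0.0153). In Con it was at 5.74 to 7.30 FPKM, and in M1 at 12.3, 5.14 and 14.7. In M3 it was at 6.63, 6.10 and 29.3 FPKM, so that M3 replicate 3 lay within the M5 range, as it did near M5 for Kpna2. The genes called lower were Pom121 and Nup214, both nucleoporins, the import receptors Tnpo2, Ipo13 and Ipo4, and the actin exporter Xpo6, with log2 differences from -0.57 to -0.33. Pom121 had 37.4, 38.0 and 37.3 FPKM in the M5 libraries, below the 48.7, 59.2 and 61.2 of MNC (-0.57, SE 0.0925, limma adjusted p = 0.0291). In M3 it was at 53.3, 55.3 and 40.0 FPKM, again with replicate 3 nearer to M5. Nup214 fell by 0.45, Tnpo2 fell by 0.44 and Ipo13 fell by 0.37 on the log2 scale. Single calls among these 7 failed in 4 to 9 of the 11 alternative fits.

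Between M5 and M1, 9 of the 56 (16.1%) were called, 1 higher and 8 lower, beside 6.75% of all genes. Ranbp2, the large nucleoporin of the cytoplasmic filaments, had 20.5, 19.4 and 21.3 FPKM in the M5 libraries and 15.8, 16.5 and 16.4 in M1 (0.31, limma adjusted p = 0.0375). Of those lower, Pom121 (-0.53, limma adjusted p = 0.00928) failed in 2 of 11 alternative fits, and the other 8 calls each failed in 5 to 9 of them. Pom121 was followed in size by Ipo13 (-0.39, limma adjusted p = 0.0121), Rcc1 (-0.39, limma adjusted p = 0.0268) and Tnpo2 (-0.36, limma adjusted p = 0.0301). Cell type markers moved between these groups as well. Of 6 spermatocyte markers 2 were called higher in M5, with a summed level of 549.9 to 592.9 FPKM against 470.4 to 528.7 in M1. Not called, Piwil1 (mean 91.2 against 103.2 FPKM) and Spata22 (9.79 against 10.5) were lower in M5. Of 6 round spermatid markers 1 was called higher and 2 lower, with 990.3 to 1036 FPKM against 1094 to 1151. Of 6 elongating spermatid markers 2 were called lower, with 21832 to 30650 FPKM against 26698 to 28477. Not called, Prm1 (mean 7675 against 7195 FPKM), Prm2 (8446 against 7437) and Tnp1 (4169 against 3741) were higher in M5. Of 6 red blood cell markers 5 were tested and 1 was called higher, with 147.6 to 490.8 FPKM against 27.2 to 79.4. The part of these markers in the differences of the transport genes was not tested. Between M5 and M3, 0 of the 56 were called by limma, beside 0.0138% of all genes. With an unadjusted p under 0.05 there were 17 of the 56, beside 14.3% of all genes. The lowest p-values were those of Seh1l (0.43) and Rcc1 (-0.31). Without M3 replicate 3, these were at 0.42 and -0.38 and still not called, while Pom121 (-0.52, limma adjusted p = 0.0288) and Ranbp1 (2.18, limma adjusted p = 0.035) were called. Over all 14514 genes, 188 were called in that fit. Pom121 and Ranbp1 are among the 7 genes by which M3 replicate 3 was seen to stand apart. Their calls without it are therefore no separate support.

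The genes whose pattern was most like that of Kpna2 were sought among the other 14513 genes tested, by Pearson r of log2(FPKM + 1) over the 15 libraries. The points share group and library, and r is a description. The other members did not follow Kpna2, with r from -0.24 for Kpna7 to 0.26 for Kpna1. The highest r among named genes belonged to Fam205a1 (0.94), the aldehyde dehydrogenase gene Aldh1a7 (0.90), the DNA repair gene Aptx (0.88), Nnmt (0.87), which encodes nicotinamide N-methyltransferase, Fnbp1l (0.86) and the acid phosphatase gene Acp5 (0.86). Of IDs without a name, BGI_novel_G001066 had 0.90 and BGI_novel_G001050 had 0.90. Fam205a1 was at 6.76 and 5.54 FPKM in MNC replicates 1 and 3 and at 2.53 to 3.67 in the other 13 libraries. Fnbp1l, which links membrane bending to actin, was at 37.1 and 27.6 FPKM in these libraries, 14.4 in MNC replicate 2 and 8.52 to 18.7 in the others.

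The lowest r among named genes belonged to Rbbp4 (-0.95), a histone-binding subunit of several chromatin complexes. Next among named genes were Zfr2 (-0.89), Ckap4 (-0.89), a protein of the endoplasmic reticulum membrane, Zfp433 (-0.87), the small GTPase gene Rab42 (-0.87) and Rnf19b (-0.85), a ubiquitin ligase. Rbbp4 mirrored the order of Kpna2 closely. It was at 47.8, 49.0 and 48.4 FPKM in Con, at 34.8 to 40.2 in M1, and at 39.3 and 38.6 in M3 replicates 1 and 2. In M3 replicate 3 it was at 29.7 FPKM, in M5 at 31.9, 31.9 and 33.8, and in MNC replicate 2 at 30.1. In MNC replicates 1 and 3 it was at 17.4 and 16.3 FPKM. Separate ranges of Rbbp4 thus went with the 3 ranges of Kpna2, in the opposite order. Rbbp4 was picked for its low r with Kpna2 in these same libraries, so its ranges are no separate support. Of all genes compared, 27 had an r above 0.8 and 27 had an r below -0.8.

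**Figure D5:**
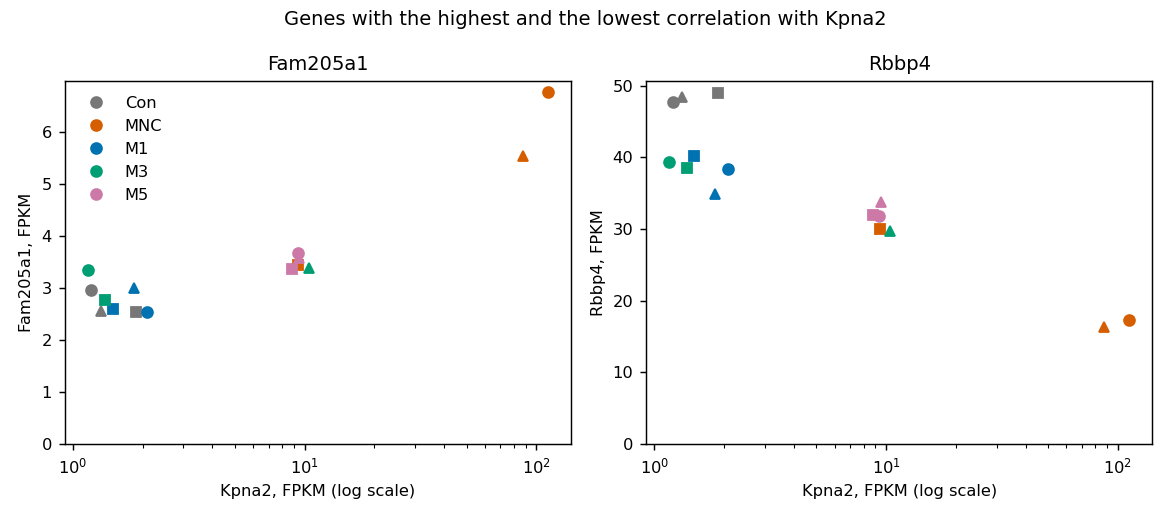
FPKM of Fam205a1 (left) and Rbbp4 (right) against Kpna2 (FPKM, log scale) in the 15 libraries, with colour for the group and shape for the replicate. MNC replicates 1 and 3 hold the highest Fam205a1 values, 6.76 and 5.54 FPKM, and the lowest Rbbp4 values, 17.4 and 16.3 FPKM.

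The 2 MNC libraries with the highest Kpna2 weigh heavily in these r values. Over the other 13 libraries, a choice made after the values were seen, other named genes led the order. Pdap1 (0.92), Ccdc138 (0.92), the ribosomal protein gene Rpl38 (0.90), the heat shock protein gene Hsph1 (0.89) and Chmp5 (0.88) were among those with the highest r. Mars2 (-0.94), Abtb1 (-0.92), Ccdc88b (-0.92), Snrnp25 (-0.91), Cox6b2 (-0.91) and Gm10705 (-0.91) had the lowest among named genes. Counts beyond 0.8 were then 97 above and 208 below. Pdap1 was at 33.6, 33.7 and 33.6 FPKM in M5 and 30.6 in M3 replicate 3, against 23.5 to 30.0 in the other libraries of the 13. In MNC replicates 1 and 3, left out of this order, Pdap1 was at 28.0 and 30.2 FPKM, so it did not share their high Kpna2. Among the members, Kpna4 then had the highest r, 0.56, and Kpna7 the lowest, -0.49.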

How the data were processed

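Poly(A) RNA of 15 mouse testis samples was sequenced on an Illumina HiSeq instrument. Per the study's methods, mapping used SOAPaligner. The deposited FPKM table (the methods call it RPKM) gives fragments scaled by gene length and mapped total, to 2 decimals. The submitters' processing notes name the genome mm10, and the annotation is not given in the sources used here. Groups were taken from sample titles. Since the descriptions of M5 replicates 1 and 2 point to the same column, these libraries rest on their titles. Titles name testis, while the labels' extraction text speaks of sperm. Of 23510 IDs, 21143 (89.9%) matched a RefSeq table of GRCm38.p6, the assembly of mm10.

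No read counts were used, so absolute depth is unknown. It was compared between libraries through 15 to 27 low genes per library whose values form steps of single fragments. Values were analysed as log2(FPKM + 1), which understates changes of low genes, and genes with a mean FPKM of at least 1 were tested (14514). limma 3.58.1 (lmFit, eBayes with trend, R 4.3.3) was fitted to the 2 groups compared, two-sided, with Benjamini-Hochberg adjustment over all genes tested. The study's own test models counts. The fit was tried on simulated data with 200 genes changed by 1 log2 unit. That change was larger than any difference of the tested members, so differences of their size were not covered. Kpna6 was compared by an exact permutation test over the 20 splits. Alternatives were a pseudocount of 0.1, no filter, centring on the library median, a fit of all 5 groups together, a block for the replicate number, and leaving out each library. Stretches of 50 bases were matched exactly, on the transcript strand, to GENCODE transcripts of mm10. No set test was run.

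The members, gene lists and tests were chosen with earlier results of these data known. Genes named beside the members were, by rule, up to 4 transport genes called in each direction with the largest fold, or the 2 with the lowest p where none was called, and the 6 named genes and 2 unnamed IDs with the highest and lowest r with Kpna2. Of the genes this rule gives, 1 is not reported here. Ran, Cse1l, Piwil1, Spata22, Catsper3, Spaca1, Prm1, Prm2, Tnp1, Ipo4, Xpo6, Ranbp3 and Nup62 are named beyond this rule, chosen after their values were seen. Tables were handled in Python 3.11.15 with pandas 2.3.3 and drawn with matplotlib 3.10.9.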

Additional observations from a re-analysis of the deposited data

Results flagged for a closer look

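For 9 nuclear transport genes the difference from the shared control was not the same in M5 and M1, by the limma test of M5 against M1 itself (adjusted p under 0.05, n = 3 libraries each). Pom121 was lower in M5 by a log2 difference of -0.53, Ipo13 of -0.39, Rcc1 of -0.39 and Tnpo2 of -0.36. Ranbp3 (-0.32), Ipo4 (-0.30), Xpo6 (-0.28) and Nup62 (-0.25) were lower as well, and Ranbp2 was higher (0.31). These 9 were 16.1% of the 56 transport genes tested, beside 6.75% of all genes. For all 9, the M5 and M1 libraries did not overlap. The 9 were taken by their adjusted p, and the share of all genes without overlap was not counted. Pom121 failed the test in 2 of 11 alternative fits and the others in 5 to 9: Ipo13 in 5, Ipo4 in 6, Ranbp2, Nup62 and Tnpo2 in 7, Ranbp3 and Rcc1 in 8 and Xpo6 in 9. Some spermatocyte, spermatid and red blood cell markers also differed between M5 and M1, and their part was not tested. Of the 6 importin genes tested, 0 were called between M5 and M1 by limma, beside 6.75% of all genes. An unadjusted p under 0.05 was found for 1 of the 6, beside 25.4% of all genes. Groups of 3 libraries are too small for a test of single outlying libraries, so MNC replicate 2 and M3 replicate 3 were not tested for Kpna2.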

How the results depend on the processing

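Among the members and the transport genes, no called gene changed sign in any alternative run. The Kpna2 differences moved by less than the larger replicate SD of the groups compared, with 1 exception. M5 minus M1 was 2.30 with a pseudocount of 0.1 instead of 1.87. Where MNC takes part that SD is wide, so few shifts could exceed it. Leaving out single libraries gave 3.63 to 5.35 for MNC minus Con. It gave -5.16 to -3.44 for M1, -4.69 to -2.96 for M3 and -3.29 to -1.57 for M5 minus MNC. For M5 minus M3 it gave 0.97 to 2.17. Members called between MNC and Con (3) fell to 1 with no filter, to 1 after centring and to 0 with the replicate block, and ranged from 0 to 2 when single libraries were left out. Members called between M5 and MNC (0) were 2 with all groups in one fit and 0 to 1 when single libraries were left out. Counts over all genes were less stable. With no filter they were 1740 for MNC against Con, 2 for M1 and 447 for M5 against MNC, and 630 and 1 for M5 against M1 and M3. After centring they were 1869, 0, 182, 252 and 4 in the same order. With all groups in one fit, 0 genes were called for M3 and 2424 for M5 against MNC, and a pseudocount of 0.1 gave 2 for M1. Leaving out single libraries gave 8 to 2497 for MNC against Con (lowest without Con replicate 1), 0 to 12 for M1 and 0 to 14 for M3 against MNC. It gave 35 to 946 for M5 against MNC (lowest without M5 replicate 2), 56 to 1690 for M5 against M1 (lowest without M1 replicate 1) and 0 to 188 for M5 against M3. An arm with 2 libraries leaves fewer degrees of freedom, and otherwise the cause was not tested. Replicate numbers did not pair the libraries: deviations of same-numbered libraries correlated between -0.40 and 0.18. With the replicate number as a block, the counts were 10 for MNC against Con, 0 for M3 and 14 for M5 against MNC, and 39 and 0 for M5 against M1 and M3. Genes with an r above 0.8 with Kpna2 were 97 instead of 27 without MNC replicates 1 and 3. The 2-decimal FPKM values and the unknown depth limit Kpna6 and Kpna7 most.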
